A study of Sus scrofa with 12 samples.

Results

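Among the miRNAs sequenced from the uterus of newborn and 50 h old gilts were several that are best known from the nervous system: miR-7, miR-9, miR-128, miR-129, miR-137 and miR-218. They were taken from the table by name, with any arm or locus suffix and every precursor row, which gave 13 of the 420 miRNA rows (11 of 362 names). The rows were ssc-miR-218-5p and ssc-miR-218-3p, ssc-miR-128 and ssc-miR-7 with 2 precursor rows each, ssc-miR-9, ssc-miR-9-1 and ssc-miR-9-2, ssc-miR-129a-5p, ssc-miR-129a-3p and ssc-miR-129b, and ssc-miR-137, written below without the prefix ssc that marks the pig. Small RNA was read in 12 libraries, each from 1 crossbred gilt (a young female pig) with Landrace, Yorkshire, Duroc and Hampshire ancestry. The PND2N gilts nursed for 48 h, the PND2R gilts were fed a commercial milk replacer for 48 h, and both were taken at 50 h of age. PND0 stands for gilts killed at most 1 h after birth that had not nursed. There were 4 gilts in each group, and both PND2 groups differ from PND0 in age and in having been fed, so age and feeding cannot be told apart in those comparisons. RNA came from bulk uterine tissue trimmed of connective tissue, so a lower share may reflect fewer cells of a type or less RNA per cell, which cannot be told apart.

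miRNAs are short RNAs that lower the output of the mRNAs they pair with, mainly through a seed near their 5′ end. miR-9 and miR-128 are abundant in the brain, where miR-9 acts in neural progenitors and miR-128 in neurons. miR-137 takes part in neuronal differentiation, miR-129 is known from neuronal excitability, and miR-218 is abundant in motor neurons. They are not confined to neurons in mammals: miR-218 lies within introns of the SLIT2 and SLIT3 genes, which encode axon guidance proteins that are also made in blood vessels and mesenchyme, miR-7 has a copy within an intron of the widely expressed HNRNPK gene and is abundant in endocrine cells, and miR-128 lies within introns of the R3HDM1 and ARPP21 genes.

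Depth set what could be seen for the rarer members. The libraries held 37462 to 12159233 recovered miRNA reads, and levels are given in rpm, reads per 1000000 miRNA reads of the same library. Of the 12 libraries, 5 held over 1000000 reads (PND2N replicates 1 and 3, PND2R replicate 4 and PND0 replicates 2 and 3), and 4 held under 100000 (PND2N replicate 2 and PND2R replicates 1, 2 and 3). In the shallowest library 1 read is worth 26.7 rpm. Counting intervals below are exact binomial (Clopper-Pearson) 95% intervals and cover counting error only, as no molecular identifiers were used. Where a library had 0 reads, the level it allows is given in the text as the rpm of 3 reads, which is lower than the upper end of the two-sided exact interval drawn in the plot of levels by library.

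The labelled tissue showed the miRNAs of muscle wall and stroma, while the marker of neurons had few reads in every library. The smooth muscle miRNAs miR-143 and miR-145 summed to 163532 to 291202 rpm in PND2N, 180983 to 209535 rpm in PND2R and 94917 to 177830 rpm in PND0. For the mesenchymal miRNAs miR-199a, miR-199b and miR-214 the sums were 88623 to 161980 rpm in PND2N, 138785 to 158714 rpm in PND2R and 139305 to 174437 rpm in PND0. miR-124a, the most neuron-restricted miRNA of the mammalian brain, was at 0 reads in 5 of the 12 libraries and had at most 20 reads in any library (2.13 rpm in PND2R replicate 4, of 9395582 reads). Its share was higher in some shallower libraries, at 26.7 rpm in PND2N replicate 2 (1 read) and 7.98 rpm in PND0 replicate 4 (3 reads). Such counts leave its level there open, and a value of 0 in PND2N replicate 1 may hide up to 12 reads. The endothelial miRNA miR-126, with both arms summed, stood at 10398 to 13972 rpm in PND2N, 9711 to 11944 rpm in PND2R and 12217 to 15349 rpm in PND0. The part of these cell types in the levels below was not tested.

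The 6 mature miRNAs covered very different levels, in an order that was nearly the same in every library. Counting 1 row for each, they took 0.552% ± 0.0868 of miRNA reads in PND2N, 0.588% ± 0.0781 in PND2R and 0.629% ± 0.0319 in PND0 (SD, n = 4 each). miR-218-5p came first, at a median of 3919 rpm over the 12 libraries and rank 39 of the 420 rows. It was followed by miR-128 at a median of 1254 rpm for its larger row (rank 66), miR-7 at 554 rpm (rank 90), miR-9 at 186 rpm (rank 120), miR-129a-5p at 25.6 rpm (rank 181) and miR-137 at 5.43 rpm (rank 233). miR-218-5p exceeded miR-128 in 12 of 12 libraries, miR-7 exceeded miR-9 in 12 of 12 and miR-9 exceeded miR-129a-5p in 12 of 12. miR-128 exceeded miR-7 in 10 of 12, the exceptions being PND2N replicate 3 and PND2R replicate 4, so these neighbours are not separated beyond the spread between libraries. miR-129a-5p exceeded miR-137 in 10 of 12, and in the remaining pair, PND2R replicates 2 and 3, miR-129a-5p had 0 reads.

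**Figure D1:**
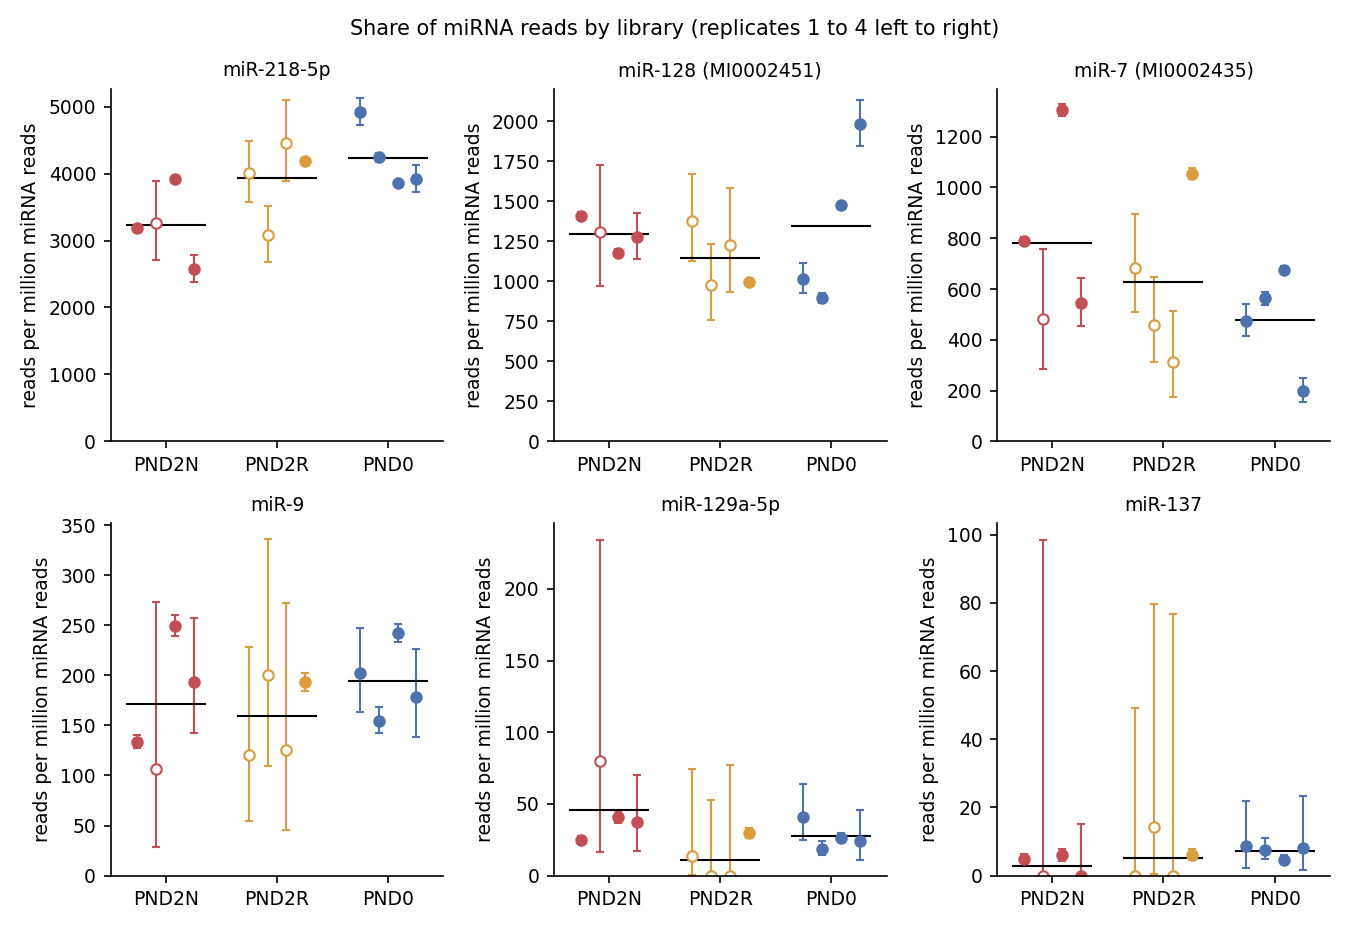
Share of miRNA reads (rpm, linear axis from 0) of the 6 miRNAs in each library, with replicates 1 to 4 from left to right in each group, exact 95% counting intervals and the group mean as a black line. Open points are libraries under 200000 reads; miR-218-5p lies lowest in PND2N replicate 4 at 2573 rpm, and the intervals of miR-129a-5p and miR-137 in the open points span most of their axes.

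Several of the 13 rows are near-identical copies that can share reads, so they are not separate measurements. miR-9-1 and miR-9-2 had the same number of reads in 12 of 12 libraries, and miR-9 had 95.9% to 100.2% of the reads of miR-9-1. miR-129b had 94.7% to 100% of the reads of miR-129a-5p over the 10 libraries with reads. miR-218b, which the naming rule leaves out, had 99.8% to 100.8% of the reads of miR-218-5p. The second row of miR-7 (miRBase precursor MI0022122) had 94.7% to 100% of the reads of the first (MI0002435).

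miR-128 differed from these copies. Its row for precursor MI0013094 had fewer reads than its row for MI0002451 in 12 of 12 libraries, and the gap was wider in the deep libraries. In the 5 libraries over 1000000 reads the smaller row had 77.4% to 81.1% of the reads of the larger, against 81.6% to 93.2% in the other 7. These ranges nearly meet. The 81.1% of PND0 replicate 2 is 2583 against 3184 reads, and the 81.6% of PND2R replicate 1 is 84 against 103 reads, too few to part them. The counts in PND2R replicate 4 were 7244 and 9356 reads, and those in PND2R replicate 3 were 55 and 59, where counting error alone is wide. The cause of the gap was not tested.

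**Figure D2:**
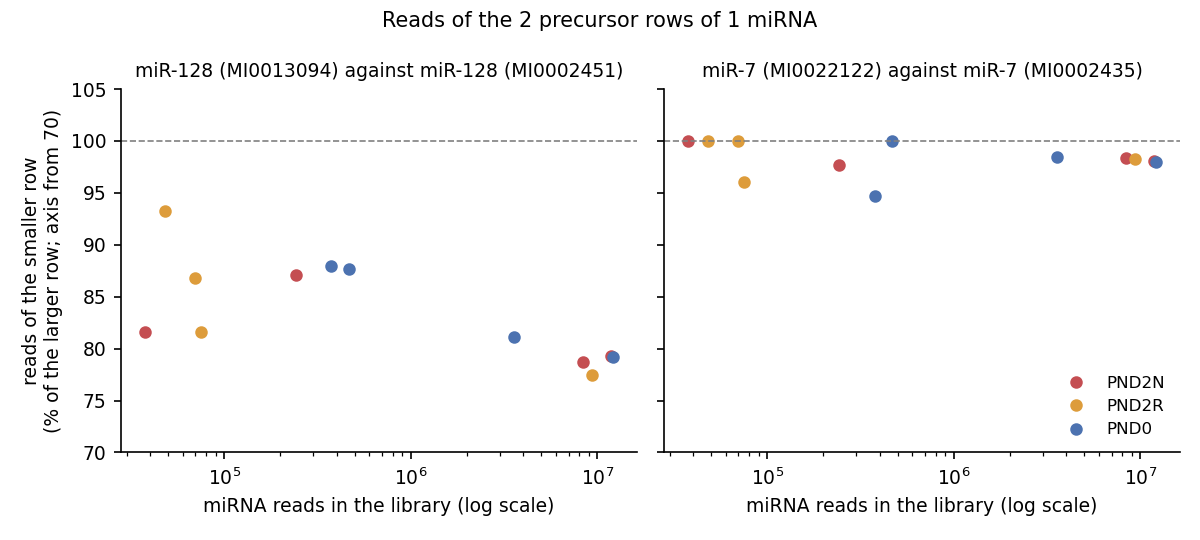
Reads of the smaller precursor row as a percent of the larger row for miR-128 (left) and miR-7 (right), against the number of miRNA reads in each library (log axis); the vertical axis starts at 70. The miR-128 rows lie between 77.4% and 81.1% in the 5 deepest libraries, while the miR-7 rows lie between 98.0% and 98.4% there.

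miR-218-5p, the most abundant member, had its lowest mean in nursed gilts. It stood, as ssc-miR-218-5p, at 3183, 3257, 3915 and 2573 rpm in PND2N replicates 1 to 4, at 4011, 3079.5, 4459 and 4181 rpm in PND2R and at 4919.5, 4244, 3866 and 3924 rpm in PND0. Its mean was 3232 ± 549 rpm in PND2N, 3933 ± 598 rpm in PND2R and 4238 ± 484 rpm in PND0 (SD, n = 4 each). Of the 4 PND2N libraries 3 lay below every PND0 library, and PND2N replicate 3 lay just above PND0 replicate 3, so that the groups overlapped. In the 5 deep libraries miR-218-5p had 15115 to 47009 reads, so that counting error was small beside the spread between libraries.

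For PND2N against PND0 the log2 difference of miR-218-5p was -0.40 ± 0.17 (SE; 95% interval -0.76 to -0.04) by limma on log2(rpm + 10), with an unadjusted p of 0.0329 and an adjusted p of 0.537 over the 268 rows tested. In 1 of the 16 pairings of a PND2N with a PND0 library the PND2N value was the higher. The median difference of all rows in this comparison was itself -0.20, and when shares were rescaled by the median ratio of rows seen in every library miR-218-5p moved to -0.22 (adjusted p = 0.846); on the deposited values, where the median of all rows was -0.49, it was at -0.77. It was not called. For PND2R against PND0 the difference was -0.11 ± 0.17 (95% interval -0.48 to 0.25, adjusted p = 0.854 by limma), and for PND2N against PND2R it was -0.28 ± 0.17 (95% interval -0.65 to 0.08, adjusted p = 0.512 by limma), with PND2N the higher in 3 of 16 pairings. With the reads of each group pooled, which lets the deepest libraries decide, the levels were 3476 rpm in PND2N, 4173 rpm in PND2R and 3978 rpm in PND0.

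The place of miR-218-5p among the members also varied by group. It made up 57.4%, 62.2%, 58.5% and 55.6% of the summed level of the 6 miRNAs in PND2N, 64.7%, 65.2%, 72.8% and 64.7% in PND2R and 73.9%, 72.1%, 61.5% and 62.1% in PND0. All 4 PND2N values lay below all 4 PND2R values, while PND2N and PND0 overlapped. The closest values, 62.2% in PND2N replicate 2 and 64.7% in PND2R replicate 1, come from libraries under 100000 reads. In PND2N replicate 2 the counting interval of miR-218-5p alone was 2705 to 3887 rpm, so this gap may be counting error. Intervals were not computed for the proportion. The proportion was noticed after the values were seen and was not tested. How many other proportions part these groups was not counted.

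The opposite arm of the same hairpin, miR-218-3p, had 1 read in all, in PND0 replicate 4, against 177111 reads of miR-218-5p over the 12 libraries. Values under 1 on the deposited scale were raised to 1, which hides up to 12 reads per library, so the total of this arm may be higher.

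miR-128, which lowers neuronal excitability in the mouse brain, showed no direction that held between groups. Its larger row, ssc-miR-128 of precursor MI0002451, stood at 1409, 1308, 1179 and 1278 rpm in PND2N, at 1377, 974, 1229 and 996 rpm in PND2R and at 1016, 894, 1474 and 1985 rpm in PND0. The 4 PND2N libraries were close together, with a coefficient of variation of 7.32%, against 16.9% in PND2R and 36.9% in PND0, whose 4 libraries spanned the whole range of the study. PND2N replicate 2 rests on 49 reads (interval 968 to 1729 rpm), an interval wider than the spread of the 4 PND2N values. The closeness of the PND2N libraries was not tested. The log2 difference was 0.02 ± 0.23 (SE; 95% interval -0.48 to 0.51) for PND2N against PND0, -0.17 ± 0.23 (-0.67 to 0.32) for PND2R against PND0 and 0.19 ± 0.23 (-0.31 to 0.68) for PND2N against PND2R, with adjusted p of 0.963, 0.854 and 0.763 by limma. These intervals leave room for changes of up to 1.43-fold up and to 0.716 of the PND0 level in PND2N. The smaller row ranged from 725 to 1745 rpm, and its log2 differences were -0.02, -0.16 and 0.14 in the same order.

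miR-7, which is enriched in neurons and in hormone-producing cells, varied most among the 4 miRNAs seen in every library. Its first row, ssc-miR-7 of precursor MI0002435, stood at 790.2, 480.5, 1304 and 544 rpm in PND2N, at 682, 458, 313 and 1054 rpm in PND2R and at 474, 563, 675 and 199.5 rpm in PND0. The highest library held 6.54 times the level of the lowest, against 1.91 times for miR-218-5p, 2.22 times for miR-128 and 2.34 times for miR-9. PND0 replicate 4, the lowest at 75 reads (interval 157 to 250.1 rpm), was also the highest of all libraries for miR-128.

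The mean of miR-7 was 779.8 ± 374 rpm in PND2N, 627 ± 323.02 rpm in PND2R and 478 ± 203 rpm in PND0 (SD, n = 4 each). The log2 difference was 0.71 ± 0.43 (SE; 95% interval -0.22 to 1.64) for PND2N against PND0 and 0.37 ± 0.43 (-0.56 to 1.30) for PND2R against PND0, with adjusted p of 0.653 and 0.854 by limma. Between PND2N and PND2R it was 0.34 ± 0.43 (-0.59 to 1.27, adjusted p = 0.768 by limma) over all libraries and -0.35 in those of at least 200000 reads. Single libraries moved these values: without PND0 replicate 4 they were 0.35 for PND2N against PND0 and 0.0069 for PND2R against PND0. Without PND2R replicate 4 the difference for PND2R against PND0 was 0.077, without PND2N replicate 3 those of PND2N were 0.43 against PND0 and 0.058 against PND2R, and without PND2R replicate 3 that of PND2N against PND2R was 0.060. miR-7 was not called in any of the 3 comparisons, and the PND2N value was the higher in 12 of its 16 pairings with PND0.

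miR-7 had a higher median in the deep libraries than in the others, and its relation to depth was not tested. The 5 libraries over 1000000 reads stood at 563 to 1304 rpm (median 790.2) and the other 7 at 199.5 to 682 rpm (median 474). Within the 5 deep libraries, the PND2N pair stood at 790.2 and 1304 rpm and the PND2R library at 1054 rpm. The PND0 pair stood at 563 and 675 rpm. Within the other 7 they stood at 480.5 and 544 rpm in PND2N and at 682, 458 and 313 rpm in PND2R, against 474 and 199.5 rpm in PND0, and there the groups overlapped. The groups were not tested within these depth classes, which hold few libraries of each group. How many other rows order the deep libraries alike was not counted. Restricted to libraries of at least 200000 reads, of which PND2R has 1, the PND2R against PND0 difference was 1.25 (adjusted p = 0.963 by limma), against 0.37 over all libraries.

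**Figure D3:**
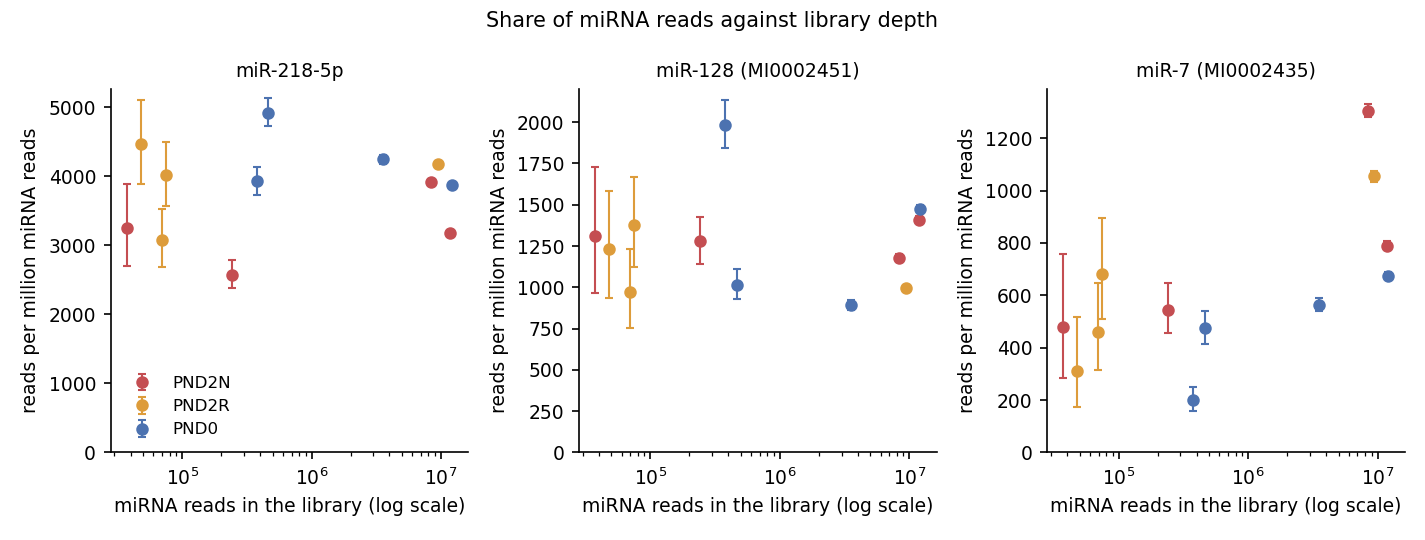
Share of miRNA reads (rpm, linear axis from 0) of miR-218-5p, miR-128 and miR-7 against the number of miRNA reads in the library (log axis), with exact 95% counting intervals and 1 colour per group. miR-7 is at 563 to 1304 rpm in the 5 deepest libraries and at 199.5 to 682 rpm in the others, so that PND2R replicate 1 at 682 rpm lies above the deep PND0 pair.

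miR-9, a regulator of neural progenitors, was present at a low level in every library and overlapped between all groups. It stood, as ssc-miR-9, at 133.9, 107, 249.6 and 194 rpm in PND2N, at 120.3, 201, 125 and 193 rpm in PND2R and at 202, 154.7, 242 and 178 rpm in PND0. The PND2N libraries held both the highest and the lowest value, and the lowest rests on 4 reads (interval 29.1 to 273 rpm). In deep libraries, with 551 to 2944 reads, the spread was beyond counting error: the intervals of PND2N replicate 1 (127 to 140.7 rpm) and PND2N replicate 3 (239 to 261 rpm) lie far apart. The log2 difference was -0.23 ± 0.31 (SE; 95% interval -0.89 to 0.43) for PND2N against PND0, -0.28 ± 0.31 (-0.94 to 0.37) for PND2R against PND0 and 0.06 ± 0.31 (-0.60 to 0.72) for PND2N against PND2R, with adjusted p of 0.822, 0.854 and 0.915 by limma.

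miR-129a-5p, tied to neuronal excitability, gave the largest difference of any member, and that difference rests on shallow libraries. It stood at 24.8, 80.1, 40.7 and 37.1 rpm in PND2N, at 13.4, 0, 0 and 29.6 rpm in PND2R and at 40.9, 18.8, 26.5 and 23.9 rpm in PND0. The 80.1 rpm of PND2N replicate 2 are 3 reads, the 13.4 rpm of PND2R replicate 1 are 1 read, and the 0 reads in PND2R replicates 2 and 3 allow levels of up to 43.0 and 62.5 rpm (3 reads). In the deep libraries it had 293 and 342 reads in PND2N and 278 reads in PND2R, against 67 and 322 reads in PND0.

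Between PND2N and PND2R the log2 difference of miR-129a-5p was 1.58 ± 0.45 (SE; 95% interval 0.62 to 2.55), with an unadjusted p of 0.00335 and an adjusted p of 0.149 by limma, and its copy row miR-129b gave 1.58 as well. Without PND2R replicate 4, the single deep PND2R library, both rows passed (adjusted p = 0.0324 for each, with a log2 difference of 1.98 for miR-129a-5p); in the libraries of at least 200000 reads the difference was 0.14 (adjusted p = 0.998). For PND2R against PND0 the difference was -1.07 ± 0.45 (95% interval -2.04 to -0.11, adjusted p = 0.389 by limma) over all libraries and 0.11 in those of at least 200000 reads, and for PND2N against PND0 it was 0.51 ± 0.45 (-0.45 to 1.47, adjusted p = 0.755) over all libraries and 0.25 without PND2N replicate 2. With a pseudocount of 1 rpm in place of 10, the differences were 3.22 for PND2N against PND2R (adjusted p = 0.293) and -2.58 for PND2R against PND0 (adjusted p = 0.367). With reads pooled by group the levels were 31.6 rpm in PND2N, 29.1 rpm in PND2R and 25.2 rpm in PND0.

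Both arms of miR-129a were read, and their balance varied between libraries. In the 5 libraries with at least 50 reads of the hairpin, miR-129a-3p made up 27.7% of them in PND2N replicate 1 (exact 95% interval 23.4% to 32.3%) and 11.9% in PND2N replicate 3 (8.81% to 15.5%). It made up 26.6% in PND2R replicate 4 (22.3% to 31.4%). In PND0 it made up 16.2% in replicate 2 (8.95% to 26.2%) and 23.5% in replicate 3 (19.5% to 27.9%). The PND2N pair held the highest and the lowest share of the 5 libraries, with intervals that do not overlap. Animals and library preparations cannot be told apart here, and groups were not compared.

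miR-137, which acts in neuronal differentiation, was the rarest of the 6. It stood at 4.91, 0, 5.95 and 0 rpm in PND2N, at 0, 14.3, 0 and 5.96 rpm in PND2R and at 8.61, 7.58, 4.69 and 7.98 rpm in PND0. The 14.3 rpm of PND2R replicate 2 are 1 read, and 3 reads, the limit for 0 reads, would be 80.1 and 12.4 rpm in PND2N replicates 2 and 4 and 40.1 and 62.5 rpm in PND2R replicates 1 and 3. In the 5 libraries over 1000000 reads, which had 27 to 58 reads each, it stood at 4.91 and 5.95 rpm in PND2N and 5.96 rpm in PND2R, against 7.58 and 4.69 rpm in PND0. The log2 difference was -0.47 ± 0.29 (SE) for PND2N against PND0, -0.29 ± 0.29 for PND2R against PND0 and -0.18 ± 0.29 for PND2N against PND2R, with adjusted p of 0.664, 0.854 and 0.818 by limma. With a pseudocount of 1 rpm they were -1.67, -1.33 and -0.34 in the same order.

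Of the 13 member rows 12 were seen above the floor in at least 4 libraries and were tested. None passed in any of the 3 comparisons at an adjusted p of 0.05, and neither did any other of the 268 rows (0% called in each comparison by limma). At an unadjusted p under 0.05 there was 1 member row for PND2N against PND0, miR-218-5p, beside 22 of all rows (8.21%); it was lower, as were 6.72% of all rows, while 1.49% were higher. There were 2 for PND2R against PND0 beside 29 of all rows (10.8%), both lower, as were 7.09% of all rows, while 3.73% were higher. There were 2 for PND2N against PND2R beside 35 of all rows (13.1%), both higher, as were 3.36% of all rows, while 9.7% were lower. In both comparisons with PND2R these were the copies miR-129a-5p and miR-129b. A log2 difference below 0 was found in 6 of the 12 member rows tested for PND2N against PND0 (75% of all rows), in 10 for PND2R against PND0 (59% of all rows) and in 2 for PND2N against PND2R (61.2% of all rows). The median log2 difference of the 12 member rows was -0.00 against -0.20 over all rows for PND2N against PND0, -0.28 against -0.08 for PND2R against PND0, and 0.16 against -0.15 for PND2N against PND2R. The comparisons share libraries with each other, and copy rows weigh more than once in these medians.

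**Figure D4:**
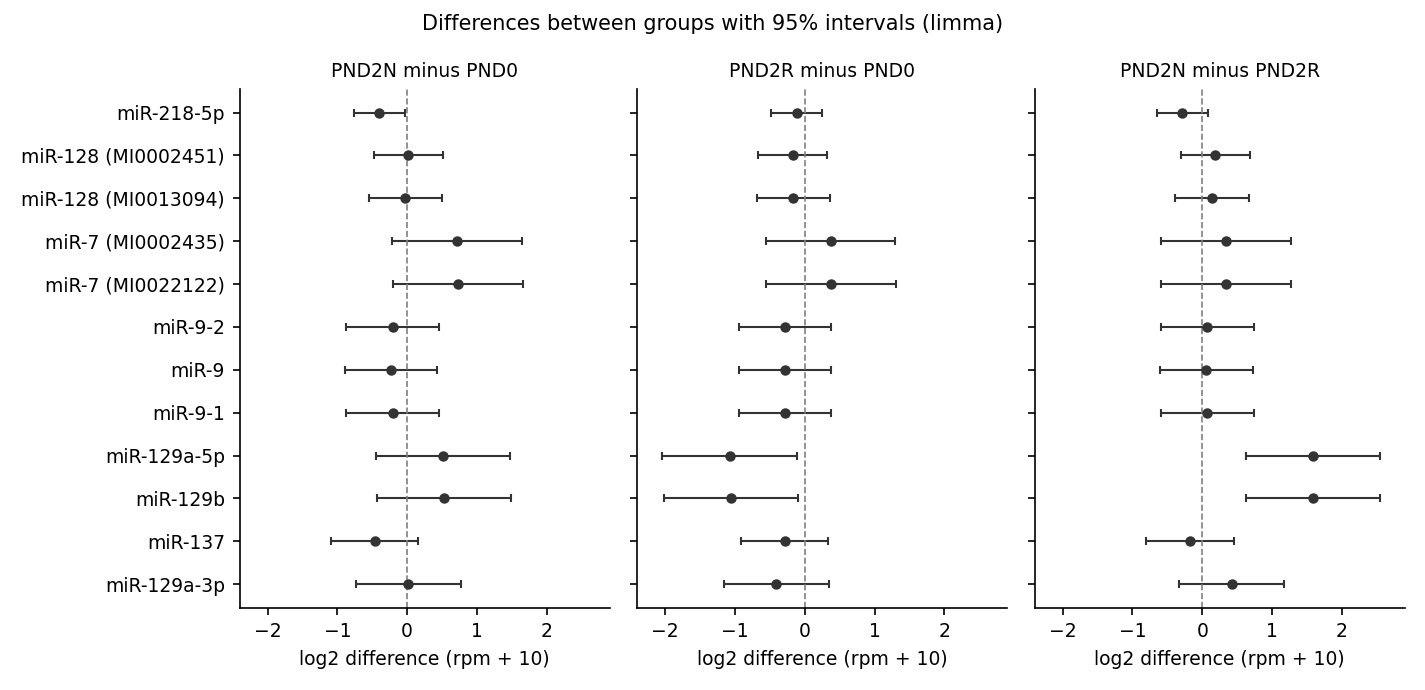
Log2 difference of rpm + 10 with its 95% interval by limma for the 12 member rows tested, in 3 comparisons, with the dashed line at no difference. The intervals of miR-218-5p (PND2N minus PND0) and of miR-129a-5p and miR-129b (PND2R minus PND0 and PND2N minus PND2R) do not reach 0, and no row passed after adjustment over the 268 rows.

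Other miRNAs of the nervous system were measured at low levels. A list of miRNAs known from brain, such as miR-124, miR-132, miR-138 and miR-219, found 13 rows in the table, of which 11 were tested by limma and 0 passed in any comparison, with 0 also at an unadjusted p under 0.05. By median share the first 4 were miR-149 (216 rpm), miR-139-5p (169 rpm), miR-338 (14.9 rpm) and miR-139-3p (10.1 rpm), all but the first below miR-9. miR-149 stood at 222 ± 43.4 rpm in PND2N, 178 ± 23.8 rpm in PND2R and 259 ± 56.3 rpm in PND0, with log2 differences of -0.21 ± 0.25 (adjusted p = 0.822) and -0.50 ± 0.25 (adjusted p = 0.494) against PND0 by limma. miR-139-5p stood at 173 ± 12.8 rpm in PND2N, 155.3 ± 41.3 rpm in PND2R and 190.3 ± 58.7 rpm in PND0. miR-338, a miRNA of myelinating glia, had at most 215 reads in a library, and miR-139-3p at most 163. The list had a median log2 difference of -0.15 for PND2N against PND0, -0.25 for PND2R against PND0 and -0.11 for PND2N against PND2R.

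The rows whose pattern lay closest to that of a member were let-7a, let-7f, miR-99a, miR-125b, miR-20a and miR-103, beside the endothelial miR-126, the smooth muscle miR-145-5p and the copy miR-218b. Likeness was measured over the 8 libraries of at least 200000 reads as the root mean square difference of log2 shares, each miRNA centred on its own mean, among 87 rows with at least 100 reads in each of them. After its copy miR-218b, the rows closest to miR-218-5p were both arms of the endothelial miR-126, miR-126-5p at 0.16 and miR-126-3p at 0.17, where the median row was at 0.34 and miR-218-5p itself varied by 0.27 around its mean. In these libraries miR-126-5p stood at 493, 536 and 466 rpm in PND2N and 508 rpm in PND2R, against 797, 646, 584 and 545 rpm in PND0. How many other rows part these libraries in the same way was not counted. The other arm, miR-126-3p, overlapped between groups, with 13435 rpm in PND2N replicate 3 and 11671 rpm in PND0 replicate 4. In PND2R replicate 4 miR-218-5p lay above its own mean (0.14), while miR-126-5p (-0.15) and miR-126-3p (-0.11) lay below theirs.

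miR-128 lay closest to miR-99a at 0.21, let-7a at 0.23 and miR-125b at 0.23 (median row 0.47, own variation 0.35). All 4 had their highest value of the 8 libraries in PND0 replicate 4. miR-7 lay closest to the smooth muscle miRNA miR-145-5p at 0.46, to miR-20a at 0.47 and to miR-103 at 0.49 (median row 0.76, own variation 0.77), and miR-9 to the 2 rows of let-7f, both at 0.22, and to miR-126-3p at 0.25 (median row 0.42, own variation 0.28). miR-7 and miR-9 had as few as 75 and 47 reads in 1 of these libraries. Library depth and composition are shared by all miRNAs of a library and enter these distances.

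**Figure D5:**
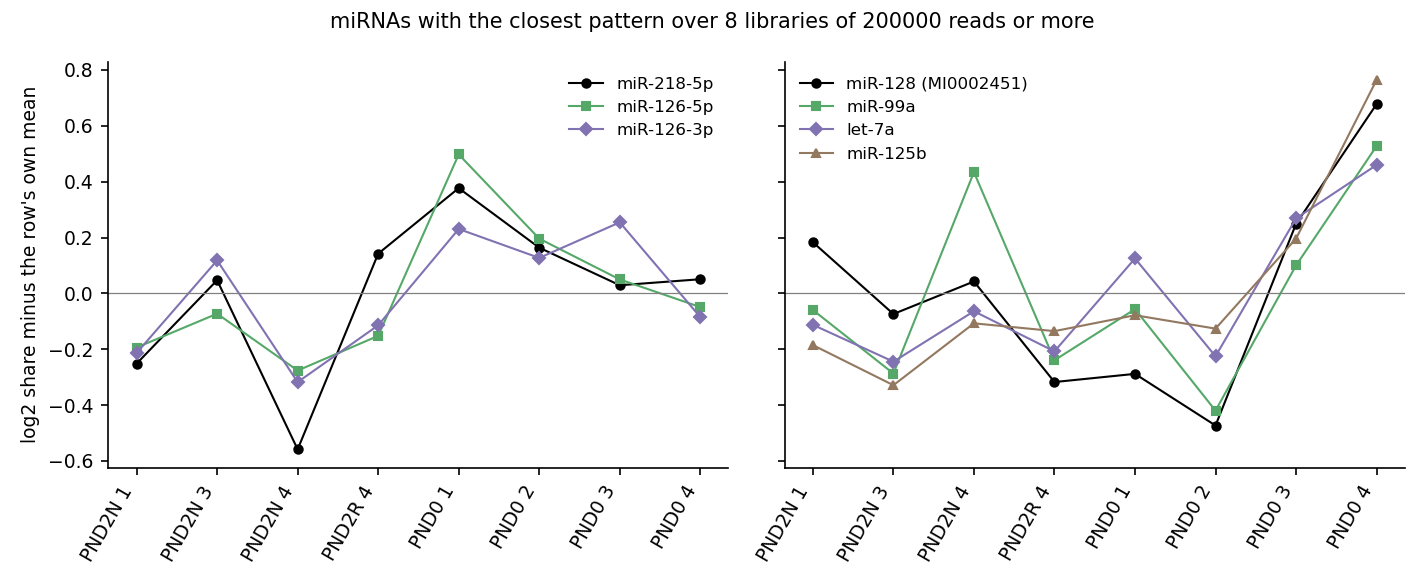
Log2 share minus the row's own mean over the 8 libraries of at least 200000 reads, for miR-218-5p with both arms of miR-126 (left) and for miR-128 with miR-99a, let-7a and miR-125b (right). miR-218-5p and miR-126 are low in PND2N replicates 1 and 4, and the 4 miRNAs on the right are highest in PND0 replicate 4.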

How the data were processed

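Small RNA libraries from the uteri of 12 gilts were grouped by the feeding label (4 each), and replicate numbers follow accession order only. The libraries were made from 500 ng of RNA with NEBNext reagents and 6 cycles of PCR, then sequenced to 50 bp from 1 end, per the labels' protocols. Sscrofa 10.2 is the genome build in the submitters' processing notes; which aligner, counting tool and normalization were used is not given in the sources used here. Each value deposited by the authors is a normalized signal of 1 miRNA row. From its values, each is a read count divided by 1 factor per library, with values under 1 raised to 1. Reads were counted back from the steps between low values: 100% of values up to 1000 reads were whole within 0.1 of a read, as were 95.9% or more of those of any size. This floor hides up to 12 reads. Floor values were set to 0 and the signal was divided by the library's sum to give rpm; reads of copy rows count more than once in that sum.

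The test was limma 3.58.1 (R 4.3.3; empirical Bayes with trend, two-sided) on log2(rpm + 10), over all 12 libraries with 1 coefficient per group, 9 residual degrees of freedom and Benjamini-Hochberg adjustment over 268 rows (those exceeding the floor in 4 or more libraries; threshold 0.05). A pseudocount of 10 rpm understates changes of low miRNAs. Members, lists and the rule for named miRNAs (all members, the 4 most abundant of the list, the 3 rows closest to each of 4 members) were chosen with earlier results of these data known. No 2 replicate libraries were identical (chi-square per degree of freedom 2.98 to 1093 over 18 pairs). Alternatives covered the pseudocount, deposited values, filters, deep libraries, single rows per name, each library left out, library weights and median ratio scaling. Intervals used scipy 1.17.1 and figures matplotlib 3.10.9.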

Additional observations from a re-analysis of the deposited data

Results flagged for a closer look

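Among 37 groups of 4 libraries in which a member row varied, 2 were flagged. In these the gap of 1 library to the nearest other, divided by the group's range, was above Dixon's 95% critical value. In both groups 3 libraries were set to 0, so this ratio was 1 whatever the remaining value was. The chance rate of about 1 in 20 groups does not hold for such tied values. Copy rows also count more than once among the 37 groups. miR-129a-3p stood at 10.7 rpm in PND2R replicate 4 (101 reads) and at 0 reads in the other 3 PND2R libraries, where 3 reads, the limit for 0 reads, would be 40.1 to 62.5 rpm. miR-218-3p stood at 2.66 rpm in PND0 replicate 4, which is 1 read, and at the floor in the other 3 PND0 libraries.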

How the results depend on the processing

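No paired analysis was made, since each library came from a different gilt and replicate numbers follow accession order only. The planned count models were not run, since the deposited values are normalized and floored; limma was kept throughout. No row passed in any comparison under the 8 settings other than leaving out a library. Leaving out each library gave 0 to 3 rows called and 0 to 2 members called for PND2N against PND2R, and 0 in the other comparisons; the 3, without PND2R replicate 4, were miR-129a-5p, miR-129b and miR-490-5p. On deposited values the median of all rows was at -0.49 for PND2N against PND0, -0.58 for PND2R against PND0 and 0.10 for PND2N against PND2R. There miR-128 turned to -0.36 for PND2N against PND0, miR-7 to -0.23 for PND2R against PND0 and miR-137 to 0.14 for PND2N against PND2R. In libraries of at least 200000 reads, miR-9 turned to 0.011 and miR-129a-5p to 0.11 for PND2R against PND0, and miR-7 to -0.35 and miR-9 to -0.048 for PND2N against PND2R, with 1 PND2R library left, which is assumed to vary like the others. Leaving out each library moved miR-128 between -0.15 and 0.23 for PND2N against PND0 and between -0.34 and 0.038 for PND2R against PND0, and for PND2N against PND2R moved miR-9 between -0.14 and 0.25 and miR-137 between -0.34 and 0.088. The cause of these turns was not tested. miR-218-5p kept its sign in all 3 comparisons under every alternative run, but came close to 0 in some. It was at -0.0020 for PND2R against PND0 without PND2R replicate 2, and at -0.048 for PND2N against PND2R on deposited values. Leaving out a library of the group outside a comparison cannot change its difference. Library weights and median ratio scaling were chosen after seeing the data.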
